A study of Mus musculus with 24 samples.

Results

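The expression of 9 genes of the fasting response (Pck1, G6pc, Fbp1, Ppargc1a, Ppara, Cpt1a, Acot1, Pdk4 and Angptl4) was followed in liver, cerebellum and testes of Thumpd1 wild-type (WT) and knockout (KO) mice. The genes were taken by symbol from a table of 55450 genes, and all 9 had a row. THUMPD1 is the tRNA-binding partner of the acetyltransferase NAT10, and the study asked what its loss does to gene expression in the mouse. The table held 24 libraries of total RNA depleted of ribosomal RNA, each tissue giving 4 of WT (numbers 1 to 4) and 4 of KO (numbers 5 to 8). All mice were of C57BL/6 background, aged 6 to 12 weeks and kept under 12 hours of light and 12 hours of dark. KO mice carried a constitutive CRISPR-Cas9 frameshift deletion of Thumpd1 in both copies, made in several founder lines, and WT mice were age-matched littermates without another treatment. Which founder line each KO library came from, the feeding state and the hour of collection were not given in the sources used here. Every tissue was a bulk sample, so fewer cells of a type and less RNA per cell cannot be told apart.

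When food is withheld, the liver supplies glucose and ketone bodies to other organs. Glucagon, acting through cyclic AMP and the factor CREB, and glucocorticoids raise the transcription of gluconeogenic genes, with the coactivator PGC-1alpha (Ppargc1a) as an amplifier. Fatty acids released from fat tissue activate the nuclear receptor PPAR-alpha (Ppara), which switches on genes for fatty acid import into mitochondria, ketogenesis and lipid handling, while insulin after a meal turns both arms down.

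Pck1 (phosphoenolpyruvate carboxykinase) starts gluconeogenesis from oxaloacetate and lies at chr2:173153048-173159273 on the plus strand of mm10, G6pc (the glucose-6-phosphatase catalytic subunit), which releases free glucose, at chr11:101367561-101377903 on the plus strand, and Fbp1 (fructose-1,6-bisphosphatase) at chr13:62864753-62888282 on the minus strand. Ppargc1a lies at chr5:51454250-51567726 on the minus strand and Ppara at chr15:85734983-85802819 on the plus strand. Cpt1a, whose product gates the entry of long-chain fatty acids into mitochondria, lies at chr19:3322334-3385733 on the plus strand, and Acot1, a cytosolic acyl-CoA thioesterase, at chr12:84009490-84018371 on the plus strand. Pdk4, a kinase that shuts pyruvate dehydrogenase and so spares glucose, lies at chr6:5483351-5496309 on the minus strand. Angptl4, a secreted inhibitor of lipoprotein lipase, lies at chr17:33773750-33781830 on the minus strand. All 9 are protein-coding, and none has an exon that overlaps an exon of the opposite strand. Acot1 was the 1 member whose expected counts were not whole numbers. It has close paralogs among which the counting can divide reads, so its values are uncertain.

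RefSeq promoter windows (GRCm38.p6) were at hand for 8 of the 9 genes, with Angptl4 the exception. Both promoters below are shown as examples. In liver Ppargc1a was called higher in KO and Pck1, the classical cyclic AMP target, was not, but a difference between their changes was not tested. Each is printed 5′ to 3′ on the strand of its gene up to the first annotated base of the gene, and capitals mark the core TGACG of the cyclic AMP response element, read on the opposite strand.
Ppargc1a, chr5:51567727-51567975, minus strand: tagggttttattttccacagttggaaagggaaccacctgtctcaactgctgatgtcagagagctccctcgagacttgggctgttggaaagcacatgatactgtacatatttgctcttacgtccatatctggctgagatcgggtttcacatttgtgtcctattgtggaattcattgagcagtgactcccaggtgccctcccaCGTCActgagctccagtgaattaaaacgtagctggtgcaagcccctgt
Pck1, chr2:173152823-173153047, plus strand: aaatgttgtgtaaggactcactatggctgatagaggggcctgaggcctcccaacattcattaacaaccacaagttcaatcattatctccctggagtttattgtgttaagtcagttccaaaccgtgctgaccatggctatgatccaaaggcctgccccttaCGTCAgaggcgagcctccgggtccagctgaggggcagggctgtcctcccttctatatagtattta
Counted from the RefSeq start, the core began at base -49 in Ppargc1a and at base -90 in Pck1, and Ppara held it from base -222 on its own strand. On either strand, 17.8% of all 32851 windows of 250 bases hold TGACG, so 3 of 8 members is a description only. The full element TGACGTCA (1.55% of windows, and overlapping TGACG) and the forkhead motif GTAAACA (3.17%) were in none of the 8 member windows, and the nuclear receptor half-site AGGTCA (14%) was in those of G6pc and Cpt1a.

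Library totals ran from 16353797 to 37889615 counts, and Thumpd1 checked the labels in every library. In liver it had 248 to 325 counts in WT and 0 to 4 in KO, in cerebellum 406 to 539 and 0 to 2, and in testes 740 to 846 and 23 to 41. Y-linked genes were found in every library (at least 56.7 CPM, count-per-million, in sum). The KO livers fell into pairs, libraries 5 and 6 against 7 and 8. The former pair was shallower (19958739 and 18145725 counts against 37889615 and 30258515) and had more of its counts in 6 structural noncoding RNAs (27.2% and 26.4% against 18.8% and 17.5%). In WT livers 1 to 4 that share was 17.5%, 19.0%, 23.1% and 31.0%, so CPM values of WT 4 are lowered most by it. Summed CPM values of 7 adipocyte marker genes also went by neighbouring number in liver, at 26.4 and 25.3 in WT 1 and 2, 5.26 and 4.63 in WT 3 and 4, 5.01 and 4.85 in KO 5 and 6, and 17.8 and 17.2 in KO 7 and 8. In liver, the deviations from the group mean correlated over genes at -0.08 for KO 5 and 6 and 0.39 for KO 7 and 8, beside -0.59 to -0.55 for the other KO pairs. In WT livers the correlation was 0.07 for 1 and 2 but -0.32 for 3 and 4, within the -0.54 to -0.25 of the other pairs. In cerebellum it was 0.41 for WT 1 and 2 and 0.37 for WT 3 and 4, beside -0.73 to -0.65 for the other WT pairs, and in testes 0.31 for KO 5 and 6 and 0.08 for KO 7 and 8, beside -0.64 to -0.56. Neighbours were not set apart in WT testes (-0.48 and -0.08, beside -0.48 to -0.17) or in KO cerebellum (-0.11 and -0.27, beside -0.61 to -0.19). The labels name the libraries as replicates and do not say that neighbours share an animal. If neighbours share one, the p-values below are too small, so the calls on members, on marker lists and between tissues were also run with neighbouring libraries summed, which leaves 2 samples a group. Those fits kept limma-voom, with quantile normalization within a tissue and TMM between tissues, so they do not show whether a call by another tool or scaling would be lost.

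In wild-type mice these were liver genes, with 1 exception. Per kb of exon, the WT liver level was highest for Fbp1 (370.4 ± 20.9 CPM per kb, SD, n = 4), then Pck1 (246.5 ± 12.3) and G6pc (106.4 ± 17.9). Ppara (37.8 ± 2.70 CPM per kb) and Cpt1a (37.8 ± 2.54) did not differ beyond their spread, nor did Angptl4 (13.4 ± 2.17) and Acot1 (11.2 ± 1.96). Pdk4 (4.17 ± 0.218 CPM per kb) and Ppargc1a (0.757 ± 0.157) were lowest.

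**Figure D1:**
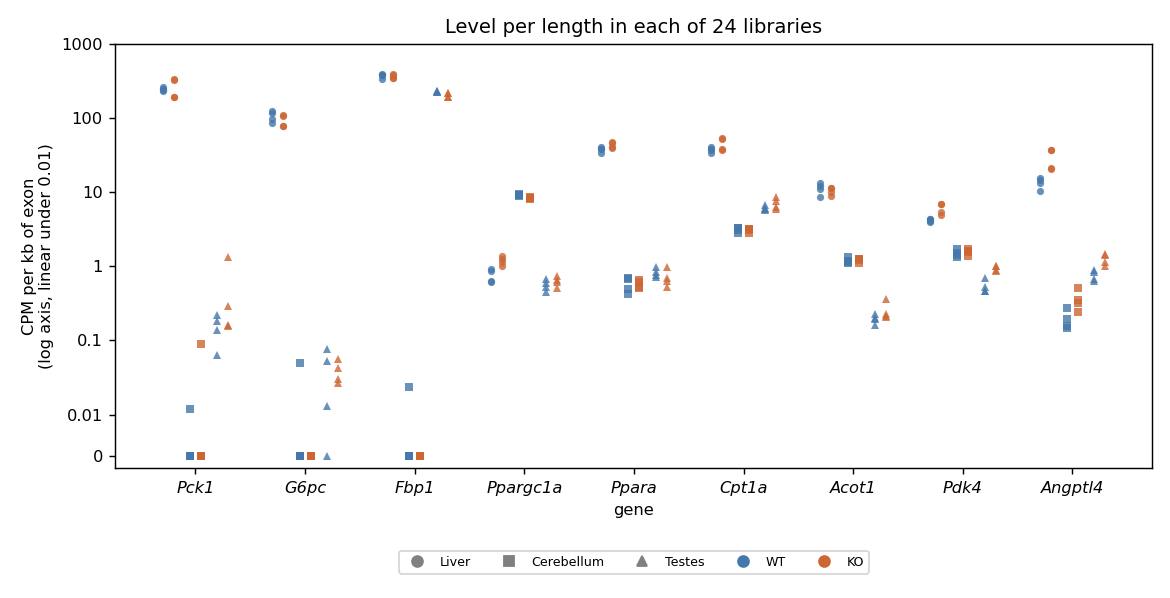
Level of each gene in all 24 libraries, in CPM per kb of exon on a log axis that is linear below 0.01. Circles are liver, squares cerebellum and triangles testes, with WT in blue and KO in orange. In WT, 8 of 9 genes were higher in liver than in cerebellum, while Ppargc1a was higher in cerebellum, and of the 3 gluconeogenic enzymes Fbp1 was also expressed in testes (388.6 CPM).

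Ppargc1a was the exception. Its WT level was 60.4 ± 1.12 CPM in cerebellum, 4.99 ± 1.04 in liver and 3.72 ± 0.637 in testes, a liver-minus-cerebellum difference of -2.44 on the log2 scale (SE 0.123, adjusted p = 1.59e-14). Fbp1 was shared by liver and testes, at 630.5 ± 35.6 and 388.6 ± 5.82 CPM in WT, while cerebellum had 1 count in 1 of 8 libraries. In WT cerebellum Pck1 had 0 to 1 and G6pc 0 to 3 counts, at or under the floor of 3 counts, and in WT testes they had 7 to 24 and 0 to 6. Pdk4 was at 14.6 ± 0.767 CPM in liver, 5.26 ± 0.557 in cerebellum and 1.88 ± 0.396 in testes. Cpt1a (46.9 ± 3.18 CPM) and Angptl4 (2.68 ± 0.432) were higher in testes than in cerebellum (23.95 ± 1.69 and 0.687 ± 0.208). All 9 members differed between liver and cerebellum and between liver and testes, and 8 between cerebellum and testes, where G6pc did not pass (adjusted p = 0.117). Over all genes tested, 85.3%, 89.7% and 89.3% passed in these 3 contrasts, so the members' counts are close to the background. With neighbours summed the members' counts were 9, 9 and 8 as well.

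In liver, Thumpd1 loss went with more Angptl4 and more Ppargc1a, while the 3 gluconeogenic enzymes did not pass the test. Of the 9 members, 2 were called (adjusted p under 0.05), both higher in KO, where 5.91% of the 12816 genes tested were called, 2.79% as higher and 3.12% as lower. After quantile normalization 5 members had no overlap between genotypes (Angptl4, Ppargc1a, Pdk4, Cpt1a and Ppara), all with KO above WT, beside 15.4% of all genes. The members' median log2 change was 0.21, beside -0.0031 over all genes.

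**Figure D2:**
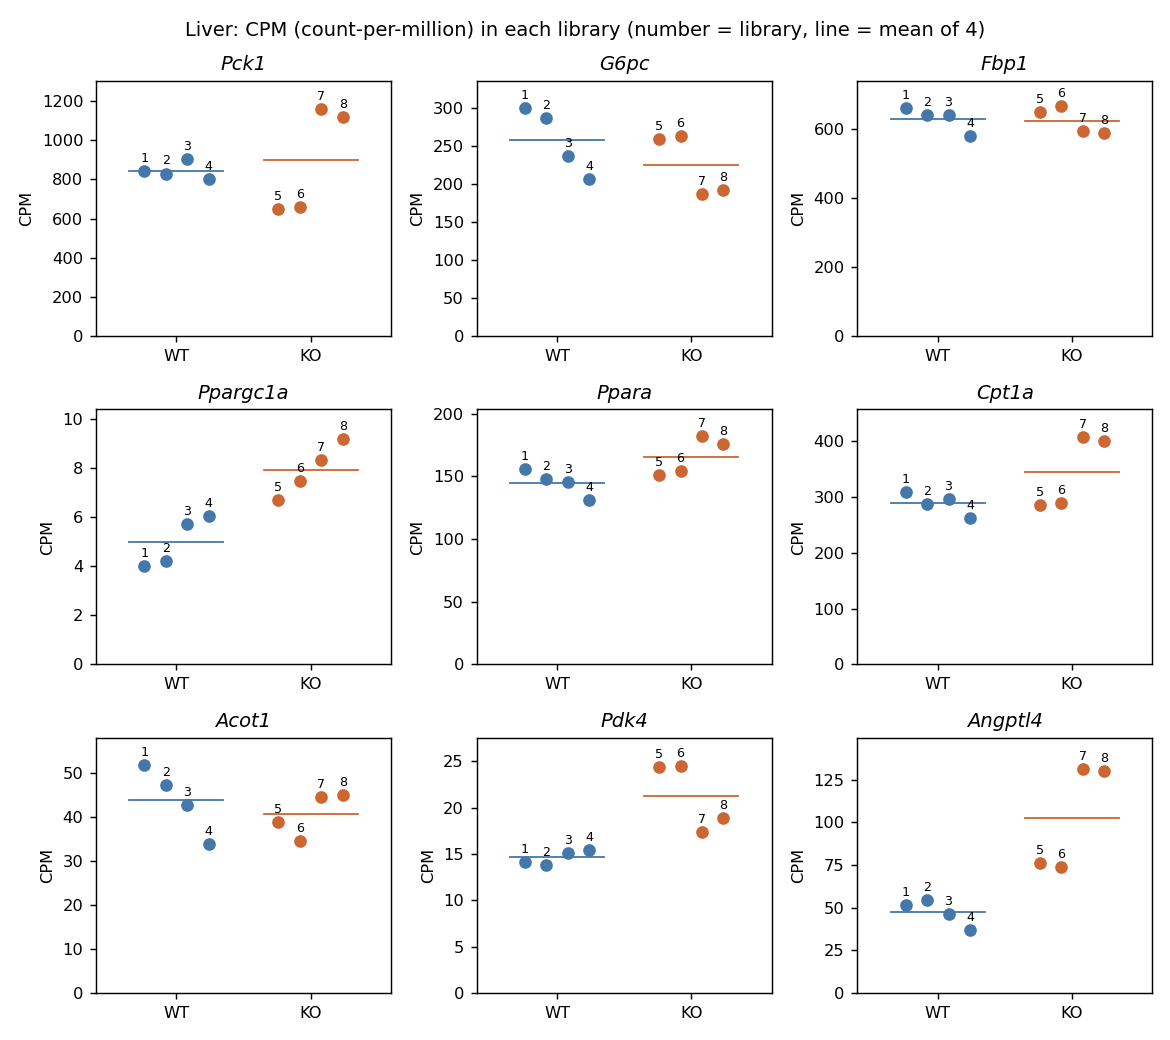
CPM of the 9 genes in each liver library, on axes that start at 0, with WT in blue, KO in orange, library numbers above the points and lines at the mean of 4. Angptl4 spanned 37.0 to 54.6 CPM across WT livers and 73.8 to 131 across KO livers, and KO libraries 5 and 6 sat apart from 7 and 8 for Pck1, G6pc, Cpt1a, Pdk4 and Angptl4.

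Among the gluconeogenic enzymes, Pck1 was at 843.0, 830.3, 904 and 804 CPM in WT livers 1 to 4 and at 651, 659, 1159 and 1120 in KO livers 5 to 8. KO libraries 5 and 6 were thus below every WT library and 7 and 8 above every one, and the difference of the groups was not called (log2 change 0.04, 95% interval -0.29 to 0.37, adjusted p = 0.906). G6pc was at 299, 286, 236 and 206 CPM in WT and at 259, 263, 187 and 192 in KO. Its KO pairs stood in the other order, with 5 and 6 inside the WT range in CPM and 7 and 8 below it. On the quantile-normalized log2 scale, 5 and 6 (8.126 and 8.134) were above every WT library (7.837 to 8.085). On that scale 7 and 8 (7.515 and 7.562) were below every one. The difference of the groups was not called (log2 change -0.12, interval -0.44 to 0.19, adjusted p = 0.65). Fbp1 overlapped in CPM, at 579 to 661 in WT and 588 to 668 in KO. On the quantile-normalized log2 scale its WT libraries were at 9.295 to 9.333. KO 5 and 6 were above that range (9.443 and 9.481) and KO 7 and 8 below it (9.109 and 9.08). The groups did not differ by the test (log2 change -0.03, interval -0.23 to 0.17, adjusted p = 0.885).

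Of the regulators, Ppargc1a was at 4.00, 4.21, 5.72 and 6.04 CPM in WT livers and at 6.71, 7.50, 8.31 and 9.19 in KO livers. Every KO library was above every WT library, from 129 to 184 counts in WT and 134 to 315 in KO, and the log2 change was 0.67 (SE 0.169, adjusted p = 0.0425). The call was narrow. It was lost without WT library 1 (adjusted p = 0.128), 2 (0.129) or 3 (0.0531) or without KO library 6 (0.0689), 7 (0.0856) or 8 (0.114), with edgeR (0.0508), without the filter on low counts (0.0905) and with neighbours summed (0.437). Ppara was at 156, 148, 146 and 131 CPM in WT and at 151, 154, 182 and 176 in KO. The groups overlapped in CPM and separated on the quantile-normalized log2 scale, at 7.15 to 7.20 in WT and 7.30 to 7.48 in KO (log2 change 0.21, SE 0.0575, adjusted p = 0.056). Ppara passed with DESeq2 (adjusted p = 0.0145) and with sample quality weights (0.0132).

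Among the genes of fatty acid use, Cpt1a was at 308, 287, 297 and 262 CPM in WT livers and at 285, 289, 407 and 399 in KO livers. KO libraries 7 and 8 were above every WT library and 5 and 6 were within the WT range in CPM (log2 change 0.29, SE 0.0904, adjusted p = 0.0873). It passed with sample quality weights (0.0125) and in the fit over all 24 libraries (0.0321). Acot1 was at 33.9 to 51.9 CPM in WT and 34.5 to 45.0 in KO, a complete overlap (log2 change -0.06, interval -0.28 to 0.15, adjusted p = 0.749). Pdk4, which links fatty acid use to glucose sparing, was at 14.2, 13.8, 15.1 and 15.4 CPM in WT and at 24.4, 24.5, 17.3 and 18.9 in KO. All KO libraries were above WT, with 5 and 6 the highest (log2 change 0.50, SE 0.144, adjusted p = 0.0684). The call on Pdk4 depended on the tool, since it passed with edgeR (adjusted p = 0.0496) and DESeq2 (0.00578).

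Angptl4 changed most among the members. It was at 51.3, 54.6, 46.5 and 37.0 CPM in WT livers 1 to 4 and at 75.9, 73.8, 131 and 130 in KO livers 5 to 8. Each KO library was above each WT library, and the mean rose from 47.4 ± 7.67 to 103 ± 32.2 CPM (SD, n = 4). The log2 change was 1.12 (SE 0.172, adjusted p = 0.00508), a fitted fold of 2.18, and the call held without any 1 of the 8 libraries (adjusted p of at most 0.0181). With neighbouring libraries summed the log2 change was 1.11 and the call was lost (adjusted p = 0.196).

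**Figure D3:**
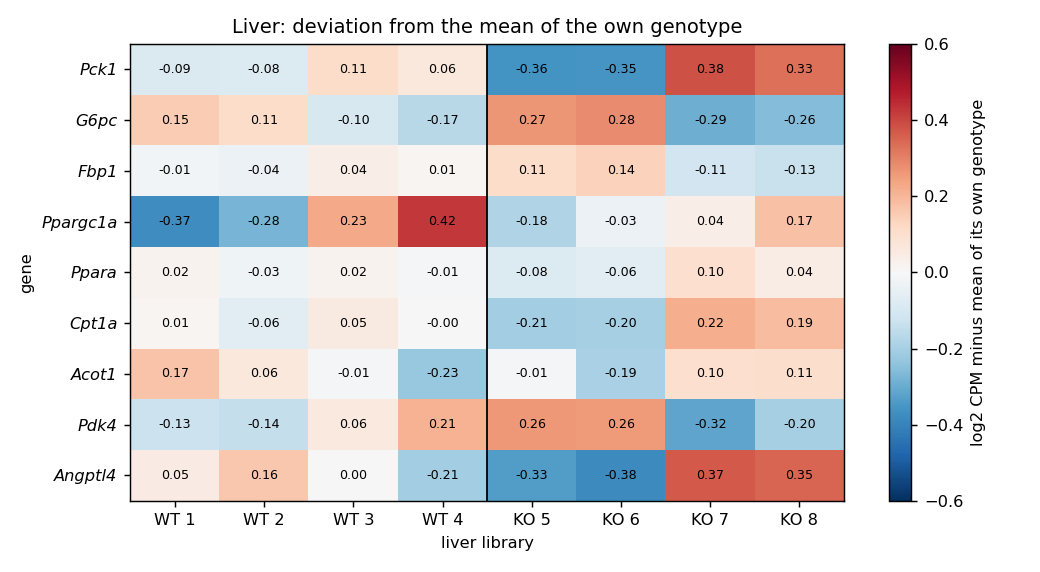
Deviation of each liver library from the mean of its own genotype, in log2 CPM with TMM scaling, for the 9 genes (red above, blue below). KO libraries 5 and 6 share a sign in all 9 genes, and 7 and 8 have the opposite sign, from -0.38 for Angptl4 to 0.28 for G6pc in KO 6. Some values are near 0, at -0.012 for Acot1 in KO 5 and -0.033 for Ppargc1a in KO 6.

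The split among KO livers ran through most of the set. Relative to the KO mean, libraries 7 and 8 were higher in Pck1 (by 0.38 and 0.33 log2 units), Angptl4 (0.37 and 0.35) and Cpt1a (0.22 and 0.19) and lower in G6pc (-0.29 and -0.26), Pdk4 (-0.32 and -0.20) and Fbp1 (-0.11 and -0.13). So Pck1 and G6pc, both gluconeogenic, moved in opposite directions between KO livers, as did Pdk4 and Angptl4, both targets of PPAR-alpha. Ppargc1a instead rose step by step over KO 5 to 8, at -0.18, -0.033, 0.038 and 0.175. Acot1 was at -0.012, -0.194, 0.1 and 0.106, so neither gene fell clearly into these pairs. The summed level of 21 genes of fed-state glycolysis and fat synthesis followed the same pairs, at 20812 and 21384 CPM in KO 5 and 6 and 12277 and 12332 in KO 7 and 8, with WT livers between at 17727 to 19896. Such a sum is set mostly by the most abundant genes and does not describe each gene. Of the 20 genes tested in that list, 18 had a KO minus WT change below 0. The 17 clock genes summed to 394 and 397 CPM in KO 5 and 6, 426 and 432 in KO 7 and 8 and 410 to 510 in WT. CPM sums of KO 5 and 6 are lowered by their larger share of structural noncoding RNAs (27.2% and 26.4% against 18.8% and 17.5% in KO 7 and 8). The clock difference between the pairs therefore cannot be told apart from that share. The part of these pairs in the members' changes was not tested.

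The other genes of the fasting response gave a mixed picture in liver. In 10 lists of 208 genes without the members, 194 were tested, and 18 were called higher and 15 lower, 17.0% of those tested beside 5.91% of all genes. This count fell to 20 without WT library 1 and to 1 with neighbouring libraries summed, and the gene that stayed was Lpl.

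**Figure D4:**
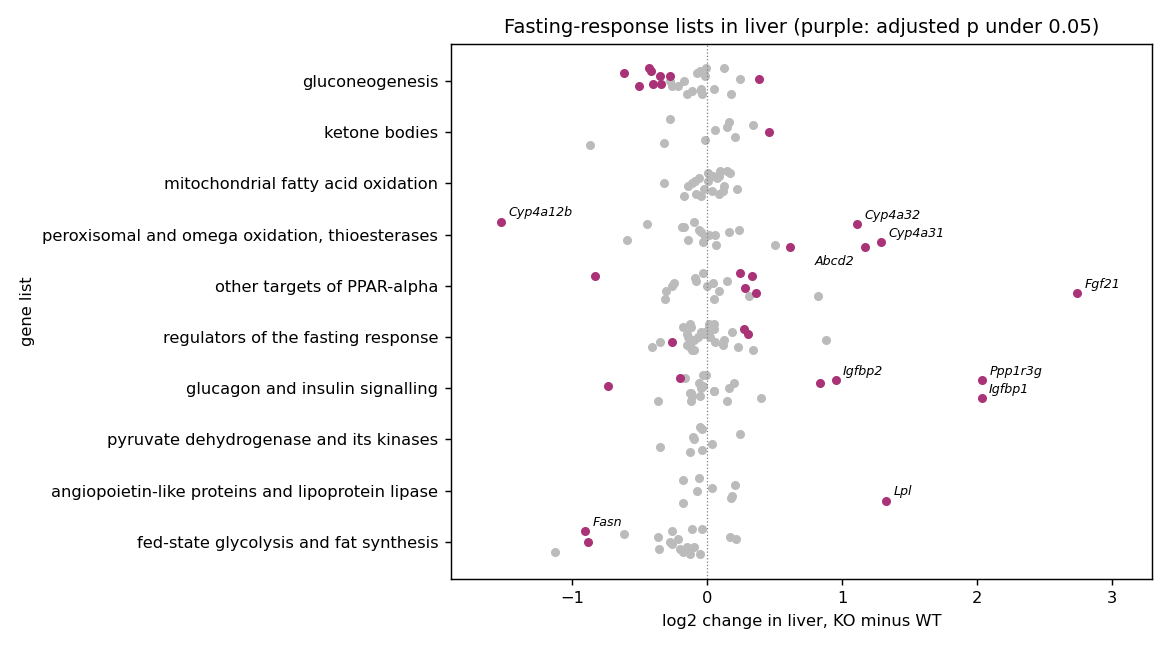
Log2 change in liver (KO minus WT) of each tested gene of 10 lists of the fasting and feeding response, 1 point per gene, with called genes in purple and the larger named changes labelled. Called gluconeogenic genes lie mostly left of 0, at 1 higher and 8 lower, and Fgf21, Ppp1r3g, Igfbp1 and Lpl lie farthest right.

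Of 26 tested genes of gluconeogenesis beyond the members, 1 was called higher and 8 lower, with a median log2 change of -0.13, and 0 were called with neighbours summed. The genes that fell included Pcx, the mitochondrial pyruvate carboxylase that feeds oxaloacetate to Pck1 (704 ± 69.9 to 523 ± 65.8 CPM, log2 change -0.42, adjusted p = 0.00266), and the amino acid-degrading enzymes Tat (-0.51, adjusted p = 0.00575) and Sds (-0.62, adjusted p = 0.00951). Gapdh fell by 0.43 on the log2 scale (adjusted p = 0.0152, lost without WT library 1 or 2 at up to 0.0566), and Gk, the glycerol kinase, rose by 0.38 (adjusted p = 0.00611). Sds, Gapdh and Gk overlap a gene on the other strand, as do Crot, Slc27a2, Txnip, Fitm1, Sirt3, Gnas and Srebf1 below, and the strand used in counting was not given, so these values are uncertain.

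Few genes of ketone bodies and mitochondrial fatty acid oxidation were called. Of 10 ketone body genes 1 was called, the monocarboxylate carrier Slc16a1 (45.6 ± 1.44 to 61.4 ± 1.12 CPM, log2 change 0.46, adjusted p = 0.00409), and of 22 mitochondrial oxidation genes 0 were called by limma-voom or edgeR and 1 by DESeq2, with 4 at an unadjusted p under 0.05. Among 21 genes of peroxisomal and omega oxidation 4 were called higher and 1 lower. Those higher were Crot, which moves fatty acyl groups out of peroxisomes (452 ± 34.9 to 677 ± 66.0 CPM, log2 change 0.61, adjusted p = 0.000354), the peroxisomal transporter Abcd2 (1.17, adjusted p = 0.0198), Cyp4a31 (1.29, adjusted p = 0.0143) and Cyp4a32 (1.11, adjusted p = 0.0152). Leaving out 1 library at a time, Abcd2 stayed called in 6 of 8 fits (adjusted p of up to 0.0595, lost without WT 3 or KO 8) and Cyp4a31 and Cyp4a32 in 7 of 8 (lost without WT 1, at 0.0551 and 0.0557). Cyp4a12b was lower (-1.53, adjusted p = 0.00764), and Cyp4a genes are near-identical copies whose reads the counting could split.

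Of 20 other targets of PPAR-alpha 5 were called higher and 1 lower. Fgf21, the fasting and stress hormone, rose from 0.464 ± 0.360 to 2.16 ± 0.539 CPM (log2 change 2.74, SE 0.529, adjusted p = 0.0143). It passed the filter on low counts through the KO libraries, where it was higher, so it could be tested only because it was high there, and the same holds for Ppp1r3g below. The log2 change of Fgf21 ran from 1.80 to 2.65 over the other tools, filters and scalings, and with neighbours summed it was 3.45 and the call was lost (adjusted p = 0.325). The fatty acid transport protein Slc27a2 rose by 0.36, the thioredoxin-binding protein Txnip by 0.33 and the liver factor Creb3l3 by 0.24, all on the log2 scale, while the lipid droplet protein Fitm1 fell by 0.83. Among 33 regulators, the phosphatidate phosphatase and coactivator Lpin2 (0.30) and the mitochondrial deacetylase Sirt3 (0.27) were higher and the fasting factor Klf15 lower (-0.26). Over the fits without 1 library, Sirt3 stayed called in 2 of 8 (adjusted p of up to 0.0848), Klf15 in 1 (up to 0.0729), Txnip in 5 (up to 0.0635, lost without WT 1, WT 2 or KO 8) and Creb3l3 in 5 (up to 0.0616, lost without WT 1, 2 or 3).

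Of 24 genes of glucagon and insulin signalling 4 were higher and 2 lower. Igfbp1, which insulin represses, rose from 26.1 ± 5.16 to 107 ± 36.3 CPM (log2 change 2.03, SE 0.224, adjusted p = 0.000975), and Igfbp2 from 425 ± 71.6 to 809 ± 98.6 (0.95, adjusted p = 0.00587). The glycogen-targeting subunit Ppp1r3g rose by 2.04 (adjusted p = 0.00857), with a log2 change of 1.36 to 2.32 under the other tools, filters and scalings, while the phosphodiesterase Pde4b (-0.73) and the stimulatory G protein subunit Gnas (-0.20) were lower. Gnas stayed called in 1 of 8 fits without 1 library (adjusted p of up to 0.139).

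Lpl, the lipase that Angptl4 inhibits, rose together with it, from 14.7 ± 1.66 to 36.7 ± 4.00 CPM (log2 change 1.33, SE 0.0927, adjusted p = 6.24e-05), and it was the 1 gene called of 9 tested in its list. With neighbours summed Lpl was still called (adjusted p = 0.0274). Of 9 genes of pyruvate dehydrogenase and its other kinases and phosphatases 0 were called by limma-voom, edgeR or DESeq2, with 2 at an unadjusted p under 0.05. In the fed-state list of 20 tested genes 2 were called lower by limma-voom, with 18 of 20 changes below 0 and a median of -0.21. With edgeR 3 genes of this list were called and with DESeq2 7, and 9 had an unadjusted p under 0.05 in limma-voom. The 2 called by limma-voom were the lipogenic factor Srebf1 (387 ± 84.8 to 201 ± 10.7 CPM, log2 change -0.88, adjusted p = 0.000582) and the fatty acid synthase Fasn (1641 ± 114 to 870 ± 162 CPM, -0.91, adjusted p = 0.00813).

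Markers of other cells and states moved in the same livers. Of 15 clock genes tested 6 were called, all lower, with Dbp at -2.77, Per2 at -1.01 and Nr1d1 at -0.95 on the log2 scale, where Dbp and Nr1d1 overlap a gene on the other strand. Of 10 glucocorticoid targets tested 8 changes were above 0, with a median of 0.31, and 1 was called higher (Tsc22d3, 0.35) and 1 lower (Tat). Of 7 hepatocyte markers 2 were higher (Apoa1 0.32, Fgb 0.27), of 10 periportal markers 2 lower and of 10 pericentral markers 1 higher and 1 lower, and of 8 stellate and fibroblast markers 3 lower (Acta2 -1.14, Col1a1 -1.03, Col1a2 -0.68). Macrophage, endothelial, adipocyte and blood lists had 0 genes called by limma-voom, edgeR or DESeq2 of 8, 8, 3 and 3 tested, with 1, 1, 1 and 0 at an unadjusted p under 0.05. Pancreatic markers summed to 9.002 to 12.1 CPM in WT livers and 19.4 to 25.4 in KO livers, with 7 of the 9 genes at 0 in every library and the 1 tested, Cela1, called higher (log2 change 1.00, adjusted p = 0.000443). Of 10 immediate early genes 8 changes were above 0, with a median of 0.28, and 0 were called by limma-voom or edgeR and 3 by DESeq2, with 6 at an unadjusted p under 0.05. With neighbours summed 0 genes of any of these marker lists were called. The part of these shifts in the members' changes was not tested.

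In cerebellum, 5 of the 9 members passed the filter and 0 were called by limma-voom or DESeq2 and 1 by edgeR, with 1 at an unadjusted p under 0.05. The background shares in limma-voom were 6.44% called, 3.93% higher and 2.51% lower among 16225 genes. That 1 was Ppargc1a, at 60.5, 59.2, 61.9 and 60.1 CPM in WT and 53.7, 55.1, 54.8 and 56.9 in KO. All KO libraries were below all WT libraries, as for 13.7% of all genes in either direction, and the change was small (log2 change -0.14, SE 0.0386, adjusted p = 0.0554). It passed with edgeR (adjusted p = 0.0225), limma-voom with TMM (0.0485) and sample weights (0.0365), without KO library 6 (0.0484), and not with DESeq2 (0.0513) or with neighbours summed (0.245).

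The other cerebellar members overlapped between genotypes. Cpt1a was at 23.95 ± 1.69 CPM in WT and 23.4 ± 1.24 in KO (log2 change -0.05, interval -0.19 to 0.08), and Pdk4 at 5.26 ± 0.557 and 5.51 ± 0.439 (0.03, -0.20 to 0.26). Acot1 (log2 change -0.02, interval -0.24 to 0.21) and Ppara (-0.05, -0.44 to 0.34), at 30 to 64 counts a library for Ppara, overlapped as well. Angptl4 lay under the filter, at 12, 17, 18 and 11 counts in WT and 20, 14, 35 and 24 in KO. Without the filter its log2 change was 0.82 (SE 0.299, adjusted p = 0.203). Pck1 had 6 counts in KO library 7 and at most 1 in the others.

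In the 10 lists, the cerebellum fit covered 164 genes, with 8 higher and 3 lower calls, 6.71% beside 6.44% of all genes. The transaminase Got2 rose by 0.25 and the glycerol-3-phosphate dehydrogenase Gpd1 by 0.26 on the log2 scale, and both overlap a gene on the other strand. Fasn was higher (0.19, adjusted p = 0.0293), a call kept in 2 of 8 fits without 1 library (without WT 2 or KO 6, and at up to 0.085 in the others), and the glucocorticoid receptor Nr3c1 was lower (-0.23, adjusted p = 0.0073). The count ran from 4 to 22 when 1 library was left out, with 4 without WT 3 or WT 4, 5 without WT 1 or KO 5, 7 or 8, and 22 without KO 6, and it was 0 with neighbours summed. Of 8 granule cell markers 4 were lower and of 17 clock genes 4 were lower in the same libraries, while 4 of 14 immediate early genes were higher. Of 7 oligodendrocyte markers 2 were higher (Mag 0.27, Cnp 0.19 on the log2 scale), of 7 markers of astrocytes and Bergmann glia 2 (Gfap 0.23, S100b 0.14) and of 7 Purkinje cell markers 2 (Pcp2 0.24, Slc1a6 0.18), where Cnp and Pcp2 overlap a gene on the other strand. With edgeR 1, 1 and 0 of these markers were called, and with DESeq2 2, 2 and 2. Choroid plexus markers varied among libraries, at a summed 17.3 to 129 CPM in WT and 21.2 to 53.6 in KO, and 0 of 7 were called by limma-voom, edgeR or DESeq2, with 0 at an unadjusted p under 0.05. With neighbours summed 1 granule cell marker and 2 immediate early genes were still called. The part of these shifts in the members' values was not tested.

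In testes, Pdk4 and Angptl4 were higher in KO, at low levels. Of 6 members tested 2 were called, both higher, where 20.5% of 19329 genes were called, 9.74% as higher and 10.7% as lower. Both were also the members with no overlap between genotypes, as held for 26.6% of all genes. Pdk4 was at 2.46, 1.61, 1.64 and 1.82 CPM in WT testes and at 3.10, 3.52, 3.58 and 3.01 in KO testes. The groups did not overlap, at 49 to 79 counts in WT and 87 to 131 in KO (log2 change 0.71, SE 0.142, adjusted p = 0.00804), and the call held without any 1 library but not with neighbours summed (adjusted p = 0.15). Angptl4 was at 3.15, 2.95, 2.27 and 2.36 CPM in WT and at 3.58, 4.11, 5.02 and 5.19 in KO. All KO libraries were above WT (log2 change 0.62, SE 0.148, adjusted p = 0.0157), and the call was lost without WT library 3 (0.0566) or 4 (0.0569), in the fit over all 24 libraries (0.123) and with neighbours summed (0.187). In that fit over 24 libraries the log2 changes were larger, at 1.54 for Pdk4 and 1.06 for Angptl4.

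**Figure D5:**
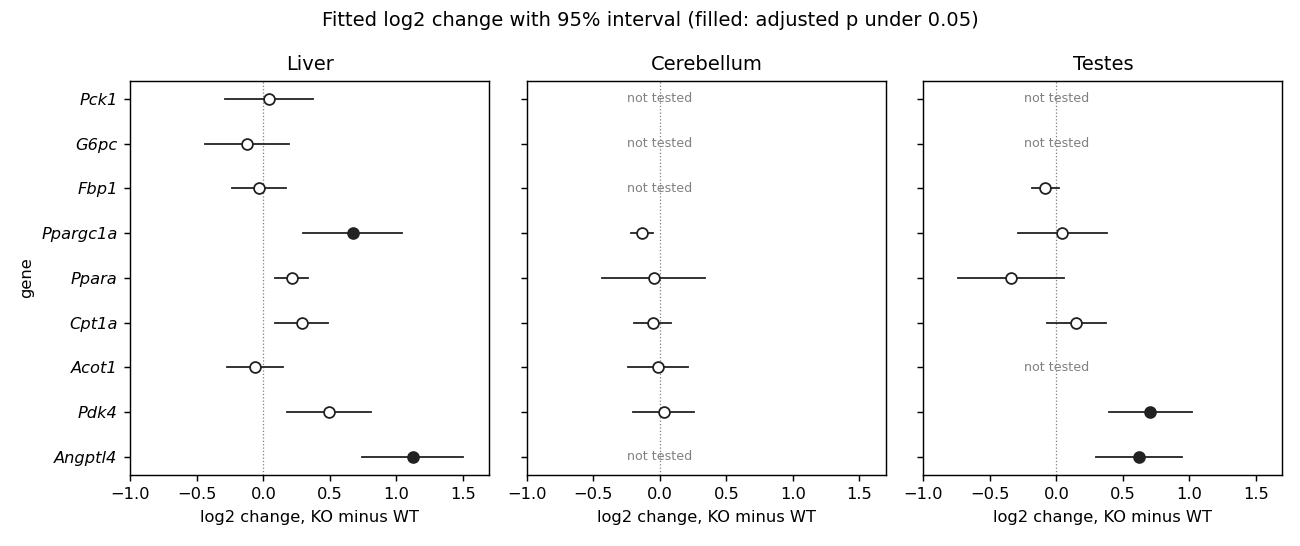
Fitted log2 change (KO minus WT) of the 9 genes with its 95% interval, by tissue, with filled points for adjusted p under 0.05 and genes under the filter marked as not tested. Angptl4 (1.12) and Ppargc1a (0.67) are filled in liver, Pdk4 (0.71) and Angptl4 (0.62) in testes and none in cerebellum.

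The other testicular members did not pass in limma-voom with quantile normalization, and Fbp1 depended on the scaling. It was at 380 to 394 CPM in WT and at 372.5, 374, 332 and 332 in KO, all KO libraries below WT in CPM, but not after quantile normalization (log2 change -0.08, interval -0.18 to 0.02, adjusted p = 0.222). It was called lower, at -0.20 on the log2 scale, with TMM (adjusted p = 0.0261), edgeR (0.0303) and DESeq2 (0.0101). Cpt1a was at 46.9 ± 3.18 and 54.5 ± 9.24 CPM (log2 change 0.15, interval -0.07 to 0.37), Ppargc1a at 3.72 ± 0.637 and 4.17 ± 0.617 (0.04, -0.29 to 0.38) and Ppara at 3.18 ± 0.431 and 2.71 ± 0.740 (-0.34, -0.74 to 0.06). Ppara passed with sample quality weights (log2 change -0.46, adjusted p = 0.0257). Pck1, G6pc and Acot1 lay under the filter. Pck1 had 134 counts in KO library 8 and 7 to 37 in the other 7, and the same library had the highest summed level of adipocyte markers (51.3 CPM against 14.1 to 41.4 in the others). The part of that in the Pck1 value was not tested.

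Of 175 list genes tested in testes 21 were called higher and 16 lower, 21.1% beside 20.5% of all genes. Of 11 ketone body genes 3 were higher and 5 lower (6 called with edgeR and 7 with DESeq2), with the testis-specific ketone-using enzymes Oxct2a (-0.26, adjusted p = 0.00721) and Oxct2b (-0.29, adjusted p = 0.00758) lower and the carrier Slc16a6 higher (0.46, adjusted p = 0.00752), although Oxct2a and Oxct2b are close copies and Oxct2b and Slc16a6 overlap genes on the other strand. The glucose-6-phosphate transporter Slc37a4, partner of G6pc, was lower (7.52 ± 0.445 to 4.79 ± 0.632 CPM, -0.76, adjusted p = 0.00202). The count was 22 without WT library 2, 11 without WT 3, 12 without WT 4, 19 without KO 7 and 0 with neighbours summed. Cell markers shifted in the same testes. Sertoli markers were called higher in 9 of 12 (summed level 408 to 453 CPM in WT and 525 to 682 in KO), beside 11 calls with edgeR and 11 with DESeq2. Spermatid markers were lower in 5 of 10 (12525 to 13204 and 9178 to 11583 CPM), beside 8 calls with edgeR and 9 with DESeq2. Adipocyte markers were lower in 3 of 7 (1 call with edgeR and 2 with DESeq2). Of 8 stellate and fibroblast markers 3 were higher (201 to 230 CPM in sum in WT and 236 to 332 in KO), and of 8 Leydig cell markers 2 were higher and 1 lower. Of 10 glucocorticoid targets 3 were higher (Zbtb16 0.72, Sgk1 0.44, Fkbp5 0.34 on the log2 scale), beside 4 calls with edgeR and 5 with DESeq2, and the median was 0.04. With neighbours summed 0 genes of these lists were called. The part of these shifts in the changes of Pdk4 and Angptl4 was not tested.

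The KO effect was compared between tissues for the 4 members that passed the filter in all 3 (Cpt1a, Pdk4, Ppara and Ppargc1a). The effect on Ppargc1a was higher in liver than in cerebellum by 0.88 on the log2 scale (SE 0.164, adjusted p = 0.00179) and than in testes by 0.73 (SE 0.218, adjusted p = 0.0242). The effect on Ppara was higher in liver than in testes by 0.57 (SE 0.171, adjusted p = 0.0245). Background shares were 7.67% for liver against cerebellum, where 1 of 4 members passed, 15.9% for liver against testes, where 2 passed, and 14.5% for cerebellum against testes, where 0 passed with edgeR or with limma-voom without a block and 1 at an unadjusted p under 0.05. With the replicate number as a block in limma-voom, Cpt1a also passed for liver against cerebellum (adjusted p = 0.0367) and Pdk4 for cerebellum against testes (0.0307). The Pdk4 effect, called in testes alone, was not shown to differ between liver and testes (difference -0.19, interval -0.65 to 0.28, adjusted p = 0.602). With neighbours summed 0 of these differences passed (adjusted p = 0.18 and 0.211 for Ppargc1a and 0.198 for Ppara). The liver-minus-testes count fell to 1 without liver WT library 1 or 2, testes WT library 1 or 4, or testes KO library 7 or 8.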

How the data were processed

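Liver, cerebellum and testes of WT and KO mice were sequenced as stranded paired-end total RNA libraries, 4 per group. Per gene and library, the authors deposited expected counts from RSEM after alignment with STAR to mm10 and GENCODE M21, without normalization. Neither tool's version nor the strand setting of RSEM was given in the sources used here. Groups came from the labels, and 0 columns lacked a sample. Totals of 16353797 to 37889615 counts put the floor of 3 counts at 0.0792 to 0.183 CPM, which covers counting error only.

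Following the study's methods, each tissue was fitted with quantile normalization, voom and limma 3.58.1 (R 4.3.3) on genes with at least 1 CPM in at least 4 libraries, with Benjamini-Hochberg adjusted p under 0.05 as the call. The number of libraries was chosen here. CPM values in the text are count-per-million values of the library total, so they move with the share of noncoding RNA, whereas log2 changes are those of the fit. Non-overlap was read on the normalized values. Tissue contrasts used limma-voom with TMM factors (edgeR 4.0.16) on all 24 libraries. The alternatives tried were DESeq2 1.42.0 and edgeR with counts rounded, other filters, scalings and weights, a joint fit of the 3 tissues, the removal of single libraries and, added after seeing the data, neighbouring libraries summed. The fits were tested on simulated data. Figures were drawn with matplotlib 3.10.9 in Python 3.11.15.

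The members, the lists and the tests were chosen with earlier results of these data known, so they support nothing on their own. From each of the 10 pathway lists the text names up to 5 called genes in liver and up to 3 elsewhere by smallest p, and from marker lists up to 3, not all of which are printed. Libraries of a group differed beyond sampling noise in all 36 pairs (chi-square per gene 2.31 to 346), and none was merged in the main fits.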

Additional observations from a re-analysis of the deposited data

Results flagged for a closer look

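Of 49 groups of 4 libraries in which a member had more than 3 counts in some library, 3 had 1 library far from the other 3, where chance alone marks about 1 in 20. Pck1 in cerebellum KO library 7 was at 0.307 CPM with the other 3 KO libraries at 0, a matter of 6 counts. Pck1 in testes KO library 8 was at 4.64 CPM with the others at 0.544 to 1.01, and Acot1 in testes KO library 7 at 1.43 CPM with the others at 0.804 to 0.897.

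The KO effect differed between tissues for 2 of the 4 members tested. For Ppargc1a the liver effect was above the cerebellar one by 0.88 and above the testicular one by 0.73 on the log2 scale, and for Ppara the liver effect was above the testicular one by 0.57, each from the contrast of effects in limma-voom. The causes were not tested.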

How the results depend on the processing

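Leaving out 1 library at a time gave 1 to 2 members called in liver, 0 to 1 in cerebellum and 1 to 2 in testes, and 20 to 33, 4 to 22 and 11 to 48 pathway genes. Members with a different KO effect numbered 1 in each case for liver against cerebellum, 1 to 2 for liver against testes and 0 for cerebellum against testes. In liver, members called were 4 with DESeq2 (Angptl4, Ppargc1a, Pdk4 and Ppara), 1 without a filter (Angptl4), 5 with sample quality weights (these 4 and Cpt1a) and 4 in 1 fit over 24 libraries (Angptl4, Ppargc1a, Pdk4 and Cpt1a). In cerebellum 1 member was called with edgeR, limma-voom with TMM or weights, and in testes 1 in the fit over 24 libraries. Pathway genes called in cerebellum were 6 without a filter, 18 with weights and 2 in the fit over 24 libraries. In testes they were 56 with edgeR, 62 with DESeq2, 56 with TMM, 20 without a filter and 71 with weights. With neighbouring libraries summed, a choice made after seeing the data, members called were 0 in every tissue, members with a different KO effect 0 in every contrast and pathway genes 1 in liver, 0 in cerebellum and 0 in testes, from 2 samples a group.

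The sign of uncalled members turned when 1 library was left out, with log2 changes from -0.0721 to 0.15 for Pck1 and -0.0914 to 0.033 for Fbp1 in liver, -0.04 to 0.0381 for Acot1, -0.15 to 0.039 for Ppara and -0.011 to 0.085 for Pdk4 in cerebellum, and -0.0555 to 0.16 for Ppargc1a in testes. Fbp1 in liver was at 0.0024 with DESeq2. The causes were not tested.

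Replicate numbers run over tissues, and samples with the same number did not deviate together (r of -0.19 to 0.24 over 24 pairs, of which 6 were over 0.1, and 8 samples correlated best with their own number). With the replicate block, 2 members differed in their KO effect between liver and cerebellum (Cpt1a was added, adjusted p = 0.0367) and 1 between cerebellum and testes (Pdk4, 0.0307). Members whose WT level differed stayed at 9 and 9 in the contrasts with liver and ran from 6 to 9 for cerebellum against testes under the alternatives run.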

Other observations

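The genes whose liver pattern was most like that of the 2 members called there were Cd81 (r = 0.995), Snap47 (0.995) and Psmd8 (0.994) for Angptl4, and Nfam1 (0.988), Slc1a2 (0.971) and Mcc (0.969) for Ppargc1a. The r was taken over 8 libraries after removal of each genotype's mean, among 10571 genes with a mean of at least 1 on the log2 CPM scale, and is a description only. For Angptl4 it follows the split of the KO livers into libraries 5 and 6 against 7 and 8. Of the 27 pairs of member and like gene so formed for the 9 members, 8 came up again when values were quantile normalized in place of TMM scaling. Myh9 was in the pairs of both Pck1 and Cpt1a.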
